A study of Mus musculus with 2 samples.

Results

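The cytochrome P450 genes were described in mouse lung after adenoviral delivery of interleukin 17B. They were taken by name: each of the 50 genes whose symbol began with Cyp and a digit, Cyp51 left out, among the 17943 genes of the deposited table. Of these, 47 code for proteins, 2 are pseudogenes and 1 is an antisense transcript. Cytochromes P450 are haem enzymes that insert oxygen into fatty acids, steroids, vitamins and foreign chemicals, with electrons passed on by partners such as the reductase Por. In mouse lung the secretory club cells of the airway are known for high P450 levels, and P450 genes of the liver are known to be lowered by inflammatory cytokines.

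The RNA came from whole lung of C57BL/6 wild-type mice, 6 to 8 weeks old, given adenovirus through the nose for 3 days. The vector was Adv-IL-17B, which carries the cytokine interleukin 17B (n = 1 library), or Adv-EV, the empty vector (n = 1 library), so both groups had received virus. The design text speaks of triplicates, but the labels give 1 sample per group, and nothing used here says whether a library pools several mice. No difference below has a replicate check, and no test was possible.

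Values are FPKM, fragments scaled to transcript length and to the library total, so levels of different genes can be set side by side. The FPKM summed to 547075 in the Adv-IL-17B library and to 539847 in the Adv-EV library. Steps in the low values put each library at about 5520000 (Adv-IL-17B) and 5490000 (Adv-EV) fragments, a rough estimate. Fragment numbers and intervals below come from that estimate, and the exact 95% intervals cover counting error only and say nothing of how mice vary. Il17b was at 93.2 FPKM in Adv-IL-17B and listed at 0 in Adv-EV. Scgb1a1 (club cells) and Sftpc (alveolar type 2 cells), defining markers of lung, were abundant in both libraries, at 26446 and 11922 FPKM in Adv-IL-17B and 37109 and 20844 FPKM in Adv-EV. The libraries also differed in red cell RNA: all 6 red cell markers were past 2-fold lower in Adv-IL-17B, with sums of 3040 FPKM in Adv-IL-17B and 9606 FPKM in Adv-EV.

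P450 expression was lower in sum in the Adv-IL-17B library and rested on few genes. The 50 genes summed to 1144 FPKM in Adv-IL-17B and 1602 FPKM in Adv-EV, a ratio of 0.714. Cyp2f2 alone held 46.9% of that sum in Adv-IL-17B and 57.2% in Adv-EV. At 537 FPKM in Adv-IL-17B and 916 FPKM in Adv-EV, it made up most of the difference between the sums. The 5 genes with the highest mean level, Cyp2f2, Cyp4b1, Cyp2b10, Cyp4f18 and Cyp2s1, together held 86.5% in Adv-IL-17B and 89.3% in Adv-EV. Of these 5, Cyp4f18 was the one with the larger share in Adv-IL-17B, at 11.7% there and 3.01% in Adv-EV.

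**Figure D1:**
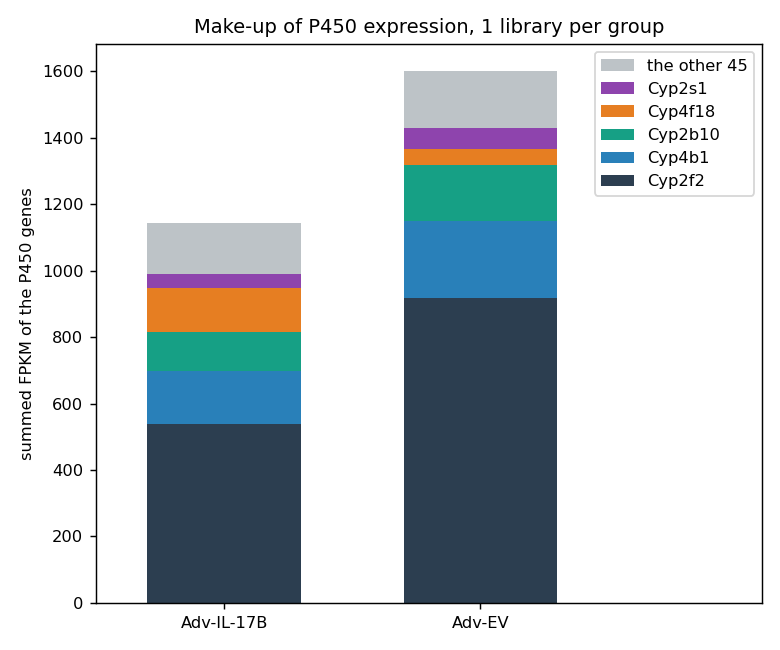
Stacked bars of the summed FPKM of the 50 P450 genes in the Adv-IL-17B library (left) and the Adv-EV library (right), coloured by gene. The Cyp2f2 part is 537 FPKM in Adv-IL-17B and 916 FPKM in Adv-EV, and the Cyp4f18 part is 133 FPKM in Adv-IL-17B and 48.2 FPKM in Adv-EV.

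A mean of at least 0.5 FPKM over the libraries was reached by 28 of the 50 genes, which are called measured here. Ratios were taken on log2(FPKM + 0.1), Adv-IL-17B minus Adv-EV, which understates differences of low genes, and a gene was counted as higher or lower from a log2 ratio of 1, that is 2-fold. By this rule 2 P450 genes were higher (7.14%), Cyp4f18 and Cyp1b1, against 3.95% of all 15056 measured genes. A further 6 were lower (21.4%), Cyp1a1, Cyp2a5, Cyp2e1, Cyp21a1, Cyp3a13 and Cyp8b1, against 2.68% of all measured genes. The median log2 ratio of the 28 was -0.53, and that of all measured genes was -0.01 with an interquartile range from -0.24 to 0.23. A ratio below 0 was found for 18 of the 28 (64.3%), against 50.8% of all measured genes. The count of lower genes moved with the pseudocount: at 1 in place of 0.1, 1 gene was higher and 2 were lower, with a median of -0.42. Of all measured genes, 2.33% were higher and 1.17% lower at that pseudocount. Among the 23 genes whose mean reached 2 FPKM, 2 were higher and 4 lower, and the median was again -0.53. Of all 12636 genes at that limit, 2.66% were higher and 1.31% lower. With no filter on low values the median of all 50 was -0.09. From 1.5-fold on, 4 were higher and 10 lower (9.42% and 8.2% of all measured genes), and none of the 28 passed 3-fold in either direction (1.67% and 1.02%). On the counting intervals of the plain FPKM ratios, 4 of the 28 genes lay above equal levels and 13 below, and 11 intervals held equal levels. Of the 14870 measured genes with a known transcript length, 17.3% lay above and 16.3% below.

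**Figure D2:**
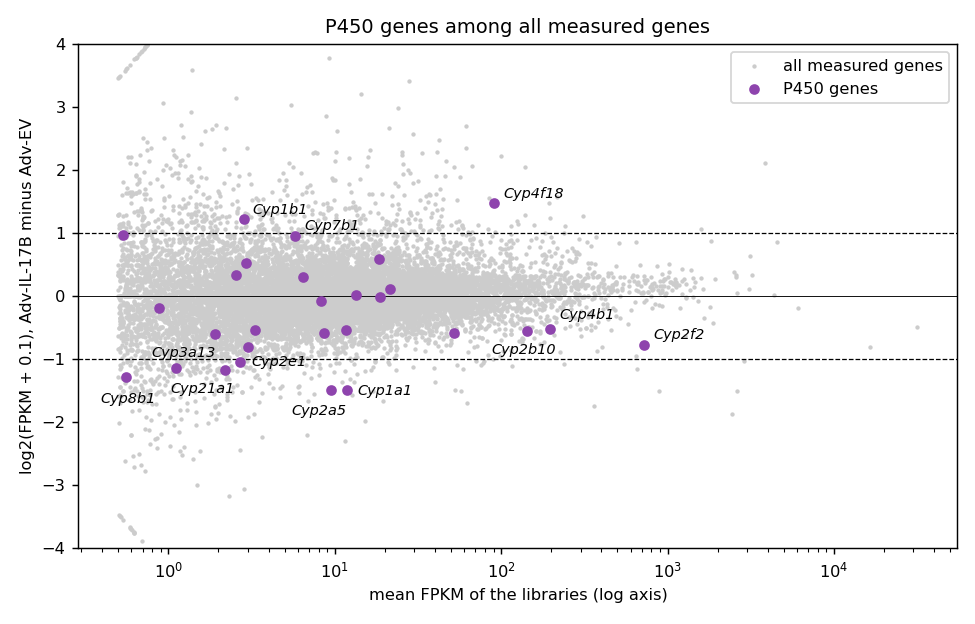
Mean FPKM of the libraries (log axis) against the log2 ratio of Adv-IL-17B to Adv-EV on FPKM + 0.1, for 28 P450 genes (purple) and all measured genes (grey), of which 134 lie beyond the limits of the plot. Dashed lines mark 2-fold. The most abundant P450 genes, Cyp2f2, Cyp4b1 and Cyp2b10, lie below 0 and inside the 2-fold lines, while Cyp4f18 lies above the upper line at 1.47.

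**Figure D3:**
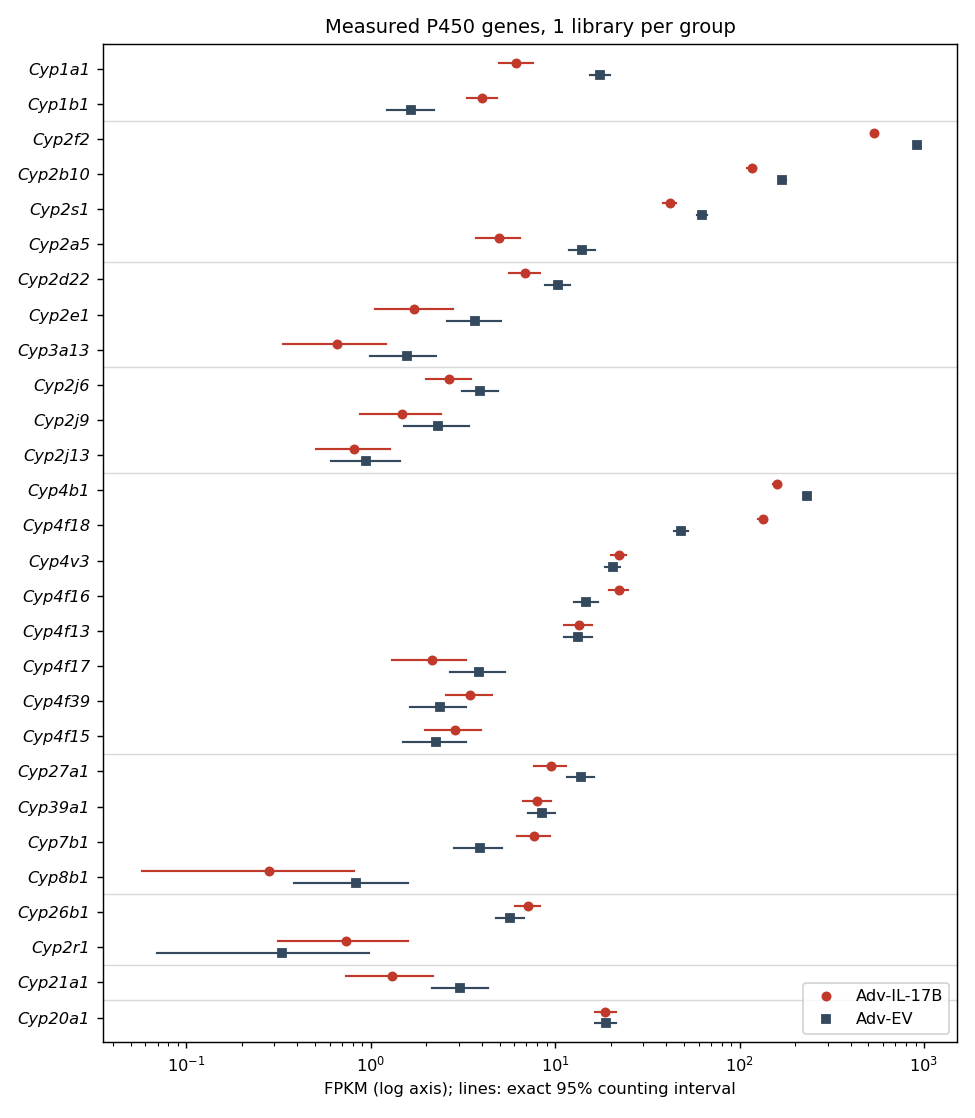
FPKM (log axis) of each measured P450 gene in the Adv-IL-17B library (red circles) and the Adv-EV library (dark squares), with the exact 95% counting interval as a line, grouped by role. The intervals of both libraries are narrow for Cyp2f2 (537 and 916 FPKM) and wide for genes near 1 FPKM, such as Cyp8b1 and Cyp2r1.

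Cyp1a1 and Cyp1b1, P450 genes that the aryl hydrocarbon receptor (Ahr) is known to switch on in response to dioxins and polycyclic aromatic chemicals, differed in opposite directions. Cyp1a1, on the plus strand of chromosome 9 (57687928 to 57703824, mm10), stood at 6.16 FPKM in Adv-IL-17B and 17.5 FPKM in Adv-EV. It was 2.84-fold lower (interval 2.23-fold to 3.65-fold lower) on about 92 and 260 fragments. Cyp1b1, on the minus strand of chromosome 17 (79706940 to 79715061), stood at 4.01 FPKM in Adv-IL-17B and 1.66 FPKM in Adv-EV. It was 2.42-fold higher (interval 1.70 to 3.47) on about 114 and 47 fragments, and with a pseudocount of 1 its log2 ratio was 0.91, inside 2-fold. The DNA before both start sites is shown because this pair shares a regulator, with the core of the dioxin response element, GCGTG on either strand, in capitals. The sequences are the 250 bases before each start site, from RefSeq on GRCm38.p6, the assembly of mm10. They read 5′ to 3′ along the gene, from chr9:57697363-57697612 on the plus strand for Cyp1a1 and chr17:79715062-79715311 on the minus strand for Cyp1b1. The Cyp1a1 start site used lies inside the gene span given above, and 2 transcripts of Cyp1a1 are listed.
Cyp1a1: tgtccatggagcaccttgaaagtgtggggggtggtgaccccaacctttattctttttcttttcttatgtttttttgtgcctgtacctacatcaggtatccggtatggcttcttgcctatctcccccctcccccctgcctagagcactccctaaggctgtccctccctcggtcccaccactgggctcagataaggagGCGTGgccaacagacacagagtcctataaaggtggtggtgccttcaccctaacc
Cyp1b1: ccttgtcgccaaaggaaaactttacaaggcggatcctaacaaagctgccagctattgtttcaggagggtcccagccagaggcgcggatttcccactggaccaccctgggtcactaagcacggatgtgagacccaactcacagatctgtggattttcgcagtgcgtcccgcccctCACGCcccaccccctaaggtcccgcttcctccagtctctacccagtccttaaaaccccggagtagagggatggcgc

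Each of these stretches held the core once, beginning at position -54 from the start site in Cyp1a1 and at -76 in Cyp1b1. These are matches to the core only, and binding of the receptor at either was not tested. DNA farther than 250 bases upstream was not searched. The core was common: 32.4% of all 32851 RefSeq promoters held it on at least 1 strand. Each promoter ran from 250 bases before to 50 after a start site. The core also stood in 11 of the 24 promoters of measured P450 genes. These 24 came from 23 genes, since Cyp2j13 has overlapping promoters that hold the same core. Of 3 further motifs searched on both strands, TATAAA, the letters of the TATA box, stood in 5 of those 24 promoters (13.6% of all promoters). It was counted at any position: in Cyp26b1 it began at -139, and in the others between -31 and -29. TGTTTNC, a forkhead motif, stood in 2 of the 24 (20.5%). TTANGTAA, the D-box of clock output factors, stood in 0 of the 24 (2.32%). The GCGTG cores of Cyp1a1 and Cyp1b1 overlapped none of these. Ahr itself stood at 10.3 FPKM in Adv-IL-17B and 12.8 FPKM in Adv-EV, and its partner Arnt at 16.1 FPKM in Adv-IL-17B and 18.3 FPKM in Adv-EV. Of 7 measured Ahr target genes other than P450s, 0 were past 2-fold, and the log2 ratios had a median of 0.00. The most abundant of them, the glucuronosyltransferase gene Ugt1a6b, stood at 15.4 FPKM in Adv-IL-17B and 13.4 FPKM in Adv-EV. Tiparp, which feeds back on the receptor, stood at 8.04 FPKM in Adv-IL-17B and 7.89 FPKM in Adv-EV, Nqo1, a quinone reductase gene, at 2.09 FPKM in Adv-IL-17B and 3.84 FPKM in Adv-EV, and the repressor Ahrr at 0.08 FPKM in Adv-IL-17B and at 0 in Adv-EV. Cdh5, a marker of the endothelium where lung Cyp1a1 is known to be made, stood at 145.8 FPKM in Adv-IL-17B and 177 FPKM in Adv-EV. None of the 8 endothelial markers was past 2-fold or at 0; the median of their log2 ratios was -0.25, and they summed to 1194 FPKM in Adv-IL-17B and 1351 FPKM in Adv-EV. Fibroblasts are known to make Cyp1b1, and of 7 fibroblast markers none was past 2-fold or at 0, with sums of 608 FPKM in Adv-IL-17B and 553 FPKM in Adv-EV. The part of either cell type in these ratios was not tested.

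The Cyp2 genes of the chromosome 7 cluster, which include those that activate or clear foreign chemicals in airway cells, had lower values in Adv-IL-17B wherever they were measured. The 8 members lie between 25802469 and 27158564 of chromosome 7, and the 4 measured had a median log2 ratio of -0.68. Cyp2f2, the club cell enzyme that activates naphthalene in mice, stood at 537 FPKM in Adv-IL-17B and 916 FPKM in Adv-EV. It was 1.71-fold lower (interval 1.65-fold to 1.76-fold lower), and its rank among all genes was 125 in Adv-IL-17B and 60 in Adv-EV. Cyp2b10, a target of the xenobiotic receptor CAR, stood at 116.7 FPKM in Adv-IL-17B and 171 FPKM in Adv-EV (1.47-fold lower, interval 1.36-fold to 1.58-fold lower). Cyp2s1, a P450 gene of surface epithelia, stood at 41.8 FPKM in Adv-IL-17B and 62.9 FPKM in Adv-EV (ratio 0.666, interval 1.36-fold to 1.66-fold lower). All 3 were inside 2-fold. The interval of Cyp2f2 lay wholly beyond that of Cyp2b10 but overlapped that of Cyp2s1.

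Cyp2a5, the coumarin hydroxylase of the same cluster, differed by more. It stood at 4.94 FPKM in Adv-IL-17B and 14.1 FPKM in Adv-EV, 2.84-fold lower (interval 2.07-fold to 3.93-fold lower). Of the 50-base windows of its transcript, 40.8% also occur in other genes, 31.0% in Cyp2a4, so the split of reads between copies is uncertain. The remaining 4 of the cluster, Cyp2b19, Cyp2b23, Cyp2g1 and Cyp2t4, were below the filter, with at most 0.48 FPKM (Cyp2t4 in Adv-IL-17B).

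Club cell markers were lower for some genes and higher for others. Of 10 markers, all measured and none at 0, 1 was past 2-fold higher (Bpifa1) and 1 past 2-fold lower (Cbr2). Their log2 ratios had a median of -0.36. They summed to 29897 FPKM in Adv-IL-17B and 42913 FPKM in Adv-EV, a sum set by Scgb1a1. Set against Scgb1a1 within each library, Cyp2f2 was at 2.03% of it in Adv-IL-17B and 2.47% in Adv-EV, Cyp2b10 at 0.441% in Adv-IL-17B and 0.461% in Adv-EV, Cyp2s1 at 0.158% in Adv-IL-17B and 0.169% in Adv-EV, and Cyp2a5 at 0.0187% in Adv-IL-17B and 0.0379% in Adv-EV. Because the markers differed in direction, these shares depend on the choice of Scgb1a1, which had a log2 ratio of -0.49. In whole lung, fewer cells of a type and less RNA per cell cannot be told apart. The part of club cell content in the P450 ratios was not tested.

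Other xenobiotic P450 genes of families 2 and 3 also had lower values in Adv-IL-17B where measured. Cyp2d22, of the debrisoquine hydroxylase subfamily, stood at 6.86 FPKM in Adv-IL-17B and 10.3 FPKM in Adv-EV (1.51-fold lower, interval 1.17-fold to 1.94-fold lower). Cyp2e1, which oxidises ethanol and is high in liver and fat, stood at 1.73 FPKM in Adv-IL-17B and 3.69 FPKM in Adv-EV, on some 18 and 37 fragments (2.13-fold lower, interval 1.15-fold to 3.86-fold lower). Cyp3a13, the measured member of the steroid- and drug-oxidising family 3, stood at 0.66 FPKM in Adv-IL-17B and 1.57 FPKM in Adv-EV, on some 11 and 25 fragments (2.38-fold lower, interval 1.09-fold to 5.15-fold lower). With a pseudocount of 1 neither reached 2-fold, since the log2 ratio was then -0.78 for Cyp2e1 and -0.63 for Cyp3a13. Adipocyte markers were low in both libraries. The 8 summed to 6.37 FPKM in Adv-IL-17B and 13.9 FPKM in Adv-EV, a difference carried mostly by Cidec, at 0.53 FPKM in Adv-IL-17B and 5.19 FPKM in Adv-EV. Of the 4 measured, Cidec and Retn (0 in Adv-IL-17B and 1.24 FPKM in Adv-EV) were past 2-fold lower, while Cfd (4.36 FPKM in Adv-IL-17B and 5.96 FPKM in Adv-EV) and Cidea (0.78 FPKM in Adv-IL-17B and 0.63 FPKM in Adv-EV) were inside 2-fold. Below the filter, Adipoq stood at 0.29 FPKM in Adv-IL-17B and 0.59 FPKM in Adv-EV, Plin1 at 0.19 FPKM in both, Lep was at 0 in Adv-IL-17B, and Ucp1 at 0 in Adv-EV. The 4 hepatocyte markers in the table summed to 2.69 FPKM in Adv-IL-17B and 4.09 FPKM in Adv-EV. Of these, Apoa2 stood at 2.34 FPKM in Adv-IL-17B and 2.63 FPKM in Adv-EV, Ahsg was past 2-fold lower at 0.13 FPKM in Adv-IL-17B and 1.2 FPKM in Adv-EV, and Alb and Serpina1b (0 in Adv-EV) rested on at most 3 fragments. The part of fat or liver RNA in these ratios was not tested. Cyp2ab1 and Cyp2u1 were below the filter.

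The subfamilies Cyp2c and Cyp2j hold arachidonate epoxygenases, which make vasoactive lipid epoxides. Cyp2j6 stood at 2.67 FPKM in Adv-IL-17B and 3.92 FPKM in Adv-EV (1.47-fold lower, interval 1.03-fold to 2.14-fold lower). Cyp2j9 (1.48 FPKM in Adv-IL-17B and 2.31 FPKM in Adv-EV) and Cyp2j13 (0.81 FPKM in Adv-IL-17B and 0.94 FPKM in Adv-EV) had ratios in the same direction, with intervals that held equal levels. These neighbours on chromosome 4 had a median log2 ratio of -0.54, while Cyp2j5, Cyp2c29 and Cyp2c44 rested on at most 4 fragments in either library. Of the epoxide hydrolases that clear their products, Ephx1 stood at 57.3 FPKM in Adv-IL-17B and 109.8 FPKM in Adv-EV, and Ephx2 at 1.22 FPKM in Adv-IL-17B and 0.52 FPKM in Adv-EV. Ephx2 rested on about 14 and 6 fragments, and the interval of its ratio (0.838 to 7.37) held equal levels. Ephx3, below the filter, was at 0 in Adv-IL-17B and 0.74 FPKM in Adv-EV, on 10 fragments.

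**Figure D4:**
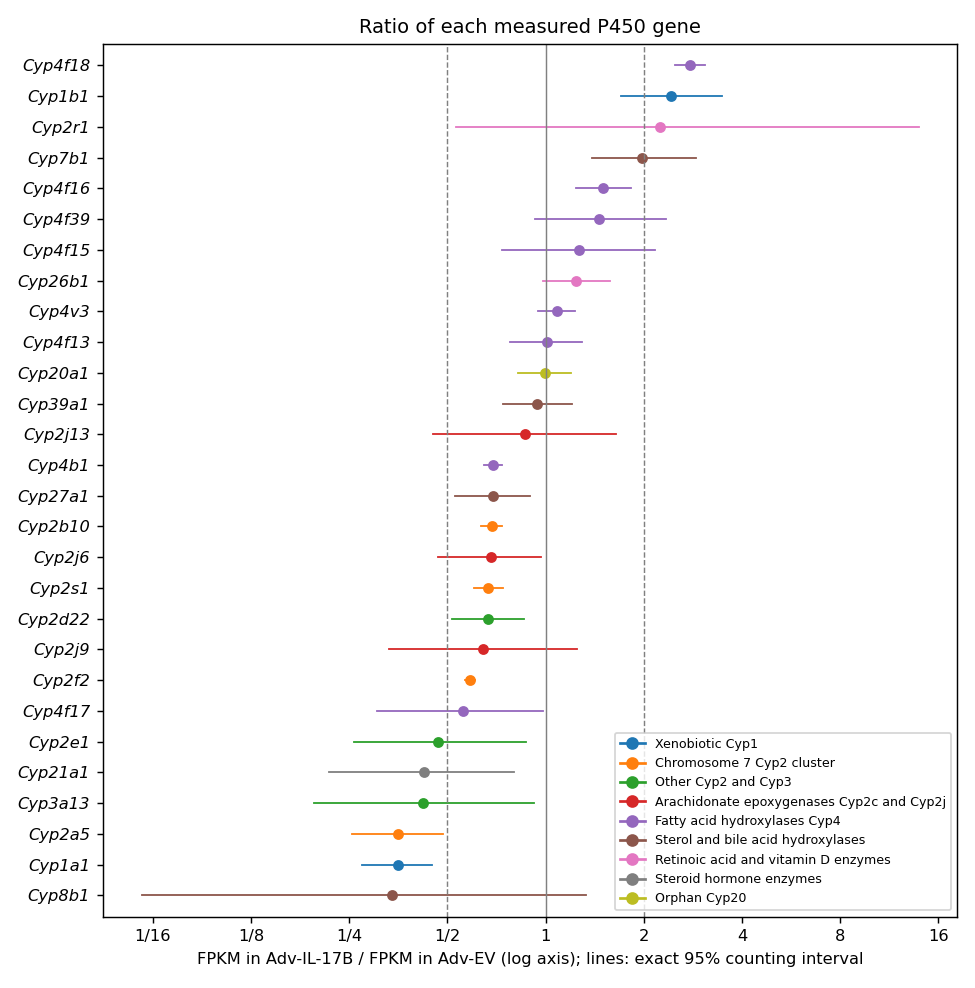
Plain FPKM ratio of Adv-IL-17B to Adv-EV (log axis) for each measured P450 gene, coloured by role, with its exact 95% counting interval; dashed lines mark 2-fold. Fatty acid hydroxylases of family 4 (purple) fill much of the upper part, led by Cyp4f18 at 2.77, while the chromosome 7 cluster (orange) lies between 0.352 (Cyp2a5) and 0.682 (Cyp2b10). Cyp2r1 lies at 2.24 but was not counted as higher, since its log2 ratio on FPKM + 0.1 was 0.97.

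Family 4, which hydroxylates fatty acids and leukotrienes, was mixed, with a median log2 ratio of 0.22 over 8 measured genes. Cyp4f18, the enzyme that inactivates leukotriene B4 in mouse neutrophils, stood at 133 FPKM in Adv-IL-17B and 48.2 FPKM in Adv-EV. It was 2.77-fold higher (interval 2.48 to 3.09) on about 1255 and 451 fragments, and it was the fourth P450 gene by mean level. Its gene lies on the minus strand of chromosome 8 (71988482 to 72009668), and 9.76% of its exon bases overlap Zfp961 on the other strand, which stood at 3.48 FPKM in Adv-IL-17B and 6.19 FPKM in Adv-EV. Neutrophil markers were higher in the same library: all 8 had a ratio above 0, 3 were past 2-fold, none was at 0, and they summed to 622 FPKM in Adv-IL-17B and 349 FPKM in Adv-EV. Set against the neutrophil receptor gene Csf3r, Cyp4f18 was at 338% of it in Adv-IL-17B and 374% in Adv-EV, and against S100a8 at 60.3% in Adv-IL-17B and 34.7% in Adv-EV. Monocyte and interstitial macrophage markers were higher as well, with a median log2 ratio of 0.67 and sums of 1432 FPKM in Adv-IL-17B and 868 FPKM in Adv-EV. The part of leukocyte content in the Cyp4f18 ratio was not tested.

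The other Cyp4f genes form a cluster on chromosome 17, between 32452697 and 32965716. Of its 7 members 5 were measured, 4 with a ratio above 0 and 1 below. Cyp4f16 stood at 22.2 FPKM in Adv-IL-17B and 14.8 FPKM in Adv-EV (log2 ratio 0.58, plain ratio interval 1.24 to 1.82). It shares 25.8% of its 50-base windows with other genes, mostly Cyp4f37. Cyp4f39, whose human counterpart makes skin barrier lipids, stood at 3.48 FPKM in Adv-IL-17B and 2.39 FPKM in Adv-EV, and Cyp4f15 at 2.86 FPKM in Adv-IL-17B and 2.26 FPKM in Adv-EV, and the intervals of both ratios held equal levels. Cyp4f13 was nearly equal at 13.5 FPKM in Adv-IL-17B and 13.4 FPKM in Adv-EV, and its sign turned with the scaling, from 0.01 to -0.03 on the log2 scale when upper quartiles were made equal. Cyp4f17 was the lower one, at 2.16 FPKM in Adv-IL-17B and 3.86 FPKM in Adv-EV (1.79-fold lower, interval 1.02-fold to 3.30-fold lower). The pseudogene Cyp4f41-ps was at 0.82 FPKM in Adv-IL-17B (5 fragments) and at 0 in Adv-EV, and Cyp4f40 at 0.10 FPKM in Adv-IL-17B and at 0 in Adv-EV.

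Cyp4b1, a lung P450 known to activate the plant toxin ipomeanol, was the second P450 gene by mean level. It stood at 160.4 FPKM in Adv-IL-17B and 232 FPKM in Adv-EV (1.45-fold lower, interval 1.36-fold to 1.54-fold lower), with an interval that overlaps those of Cyp2b10 and Cyp2s1. Set against Scgb1a1 alone among the club cell markers, it was at 0.607% in Adv-IL-17B and 0.625% in Adv-EV. Its pseudogene Cyp4b1-ps2 was at 0.95 FPKM in Adv-IL-17B (2 fragments) and at 0 in Adv-EV, where 0 fragments allow up to 2.02 FPKM (exact 95% Poisson bound). Of its 50-base windows 34.2% also occur in Cyp4b1. Cyp4v3, a fatty acid hydroxylase whose human counterpart is mutated in a retinal dystrophy, stood at 22.2 FPKM in Adv-IL-17B and 20.6 FPKM in Adv-EV, with an interval that held equal levels. The Cyp4a genes rested on at most 5 fragments in either library. In the leukotriene pathway that Cyp4f18 ends, Alox5ap, the activating protein of the first step, stood at 151.5 FPKM in Adv-IL-17B and 84.6 FPKM in Adv-EV, Alox5 at 3.60 FPKM in Adv-IL-17B and 3.67 FPKM in Adv-EV, and Lta4h at 29.5 FPKM in Adv-IL-17B and 29.8 FPKM in Adv-EV. Of 15 measured eicosanoid partner genes 1 was past 2-fold (Ephx2, higher, with an interval that held equal levels), and their median was 0.01 on the log2 scale. The most abundant, the prostaglandin-clearing gene Hpgd, stood at 163 FPKM in Adv-IL-17B and 251 FPKM in Adv-EV.

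Sterol hydroxylases went both ways. Cyp7b1, which hydroxylates oxysterols, stood at 7.69 FPKM in Adv-IL-17B and 3.90 FPKM in Adv-EV. It was 1.97-fold higher (interval 1.38 to 2.90) on about 92 and 46 fragments, just inside the limit. Ch25h, which makes the oxysterol that Cyp7b1 acts on, was the 1 of 10 measured oxysterol and bile acid pathway genes past 2-fold, at 25.5 FPKM in Adv-IL-17B and 8.24 FPKM in Adv-EV (log2 ratio 1.62). Gpr183, the receptor for the product of Ch25h and Cyp7b1, stood at 4.0 FPKM in Adv-IL-17B and 4.86 FPKM in Adv-EV, and Hsd3b7, which clears that product, at 19.4 FPKM in Adv-IL-17B and 22.3 FPKM in Adv-EV. Cyp27a1, the mitochondrial sterol hydroxylase of macrophages and liver, stood at 9.46 FPKM in Adv-IL-17B and 13.8 FPKM in Adv-EV (1.46-fold lower, interval 1.12-fold to 1.90-fold lower). Alveolar macrophage markers were lower beside it: all 8 had a ratio below 0, 3 were past 2-fold, none was at 0, and they summed to 238 FPKM in Adv-IL-17B and 343 FPKM in Adv-EV. Monocyte and interstitial macrophage markers, given above with Cyp4f18, went the other way and were higher in Adv-IL-17B. The part of either macrophage list in the Cyp27a1 ratio was not tested. Cyp39a1, an oxysterol hydroxylase, was nearly equal at 7.98 FPKM in Adv-IL-17B and 8.46 FPKM in Adv-EV. Cyp8b1, which makes cholic acid in liver, was past 2-fold lower on only about 3 and 9 fragments, at 0.28 FPKM in Adv-IL-17B and 0.83 FPKM in Adv-EV, and its interval held equal levels (0.0577 to 1.33 for the ratio). Cyp46a1, which clears cholesterol from brain, and Cyp7a1, the rate-limiting enzyme of bile acid synthesis in liver, were below the filter.

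Enzymes of retinoic acid, vitamin D and steroid hormones were few. Cyp26b1, which breaks down retinoic acid, stood at 7.10 FPKM in Adv-IL-17B and 5.72 FPKM in Adv-EV (1.24-fold higher, interval 0.984 to 1.58). Of the 12 measured retinoic acid pathway genes none was past 2-fold (median log2 ratio -0.32), and Aldh1a1, which makes retinoic acid, stood at 266 FPKM in Adv-IL-17B and 486 FPKM in Adv-EV. Cyp2r1, which starts vitamin D activation, stood at 0.74 FPKM in Adv-IL-17B and 0.33 FPKM in Adv-EV on about 7 and 3 fragments, and its interval (0.530 to 13.9) held equal levels. Cyp26a1, a relative of Cyp26b1, was below the filter. Cyp27b1, which completes that activation, was at 0.15 FPKM in Adv-IL-17B and at 0 in Adv-EV. None of the 5 measured vitamin D pathway genes was past 2-fold by the log2 rule. The plain ratio of Trpv6 was 2.03 (interval 1.25 to 3.5). The most abundant was the calcium-binding protein gene S100g, at 30.9 FPKM in Adv-IL-17B and 56.5 FPKM in Adv-EV. Cyp21a1, the steroid hydroxylase of the adrenal cortex, stood at 1.30 FPKM in Adv-IL-17B and 3.06 FPKM in Adv-EV, on some 15 and 35 fragments (2.35-fold lower, interval 1.25-fold to 4.62-fold lower). It shares 23.7% of its 50-base windows with the pseudogene Cyp21a2-ps, and with a pseudocount of 1 its log2 ratio was -0.82. Cyp11a1 and Cyp19a1 rested on at most 4 fragments, and none of the 8 measured steroid pathway partners was past 2-fold. The most abundant of those, Hsd11b1, which regenerates active glucocorticoid, stood at 61.9 FPKM in Adv-IL-17B and 102 FPKM in Adv-EV. Cyp20a1, an orphan with no settled substrate, was nearly equal at 18.7 FPKM in Adv-IL-17B and 18.8 FPKM in Adv-EV.

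The 22 P450 genes below the filter, among them the antisense transcript Cyp4x1os, lay between 0 and 0.95 FPKM in Adv-IL-17B and between 0 and 0.67 FPKM in Adv-EV, on at most 7 and 8 fragments. Of these, 12 had the higher value in Adv-IL-17B, 9 in Adv-EV, and 1 was equal. In Adv-IL-17B 2 were listed at 0, in Adv-EV 8. These numbers of fragments do not allow a direction for any of them.

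None of the 10 redox partner genes, the electron donors of the P450s and their helpers, was past 2-fold, and their median was -0.17 on the log2 scale. Por, the reductase that serves the microsomal P450s, stood at 97.9 FPKM in Adv-IL-17B and 133.8 FPKM in Adv-EV (1.37-fold lower). Cyb5a, the cytochrome that assists some P450 reactions, stood at 189 FPKM in Adv-IL-17B and 212 FPKM in Adv-EV, and Fdx1, the mitochondrial donor, at 39.4 FPKM in Adv-IL-17B and 45.1 FPKM in Adv-EV. Of 12 measured xenobiotic receptor genes and partners 0 were past 2-fold, and the most abundant, the oxysterol receptor gene Nr1h2, stood at 44.5 FPKM in Adv-IL-17B and 50.3 FPKM in Adv-EV. Nr1i3, which encodes CAR, stood at 0.82 FPKM in Adv-IL-17B and 0.96 FPKM in Adv-EV. Clock output factors of the PAR bZIP group, known in liver to drive P450 and CAR genes, were lower: Dbp stood at 29.5 FPKM in Adv-IL-17B and 95.4 FPKM in Adv-EV, Tef at 36.3 FPKM in Adv-IL-17B and 81.3 FPKM in Adv-EV, and Hlf at 2.22 FPKM in Adv-IL-17B and 6.31 FPKM in Adv-EV. Of the 18 clock-related genes 4 were past 2-fold lower, these 3 and Nr1d1 (18.7 FPKM in Adv-IL-17B and 40.7 FPKM in Adv-EV). A further 2 were higher, Nfil3 (13.2 FPKM in Adv-IL-17B and 4.72 FPKM in Adv-EV) and Npas2 (1.4 FPKM in Adv-IL-17B and 0.55 FPKM in Adv-EV). Their median was -0.65, and the sources used here do not give the hour of sampling. The part of these clock-related genes in the P450 ratios was not tested. The other P450 genes under different names were inside 2-fold: the prostacyclin synthase gene Ptgis stood at 34.8 FPKM in Adv-IL-17B and 52.5 FPKM in Adv-EV, the thromboxane synthase gene Tbxas1 at 11.0 FPKM in Adv-IL-17B and 7.49 FPKM in Adv-EV, and Cyp51, of cholesterol synthesis, at 7.37 FPKM in Adv-IL-17B and 8.63 FPKM in Adv-EV.

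Other enzymes that handle foreign chemicals were set beside the P450 genes. Of 58 measured flavin monooxygenase, transferase, carboxylesterase, aldehyde and related genes, 2 were past 2-fold higher and 6 lower, against 3.95% and 2.68% of all measured genes. A ratio above 0 was found for 12 of the 58 and below 0 for 46. Their median log2 ratio was -0.35, against -0.53 for the P450 genes. This difference between the lists was not tested. The carbonyl reductase gene Cbr2, also a club cell marker, stood at 1882 FPKM in Adv-IL-17B and 3860 FPKM in Adv-EV. The flavin monooxygenase gene Fmo2 stood at 73.6 FPKM in Adv-IL-17B and 158 FPKM in Adv-EV, and the glutathione transferase gene Gsta3 at 45.9 FPKM in Adv-IL-17B and 94.3 FPKM in Adv-EV. The carboxylesterase gene Ces1f stood at 0.72 FPKM in Adv-IL-17B and 2.91 FPKM in Adv-EV, Ces1g at 1.10 FPKM in Adv-IL-17B and 3.42 FPKM in Adv-EV, and the transferase gene Gsto2 at 0.29 FPKM in Adv-IL-17B and 2.13 FPKM in Adv-EV. The higher ones were Ephx2, on the few fragments given above, and Ugt1a7c, at 5.88 FPKM in Adv-IL-17B and 2.73 FPKM in Adv-EV. Acute phase genes, which liver and lung raise in inflammation, stood opposite: 5 of 10 were past 2-fold higher and 0 lower, and the median log2 ratio was 1.09. The serum amyloid gene Saa3 stood at 6248 FPKM in Adv-IL-17B and 1454 FPKM in Adv-EV, and the others past 2-fold were Cfb, Orm1, Saa1 and Ptx3, with log2 ratios between 1.24 and 2.05. Of 10 glucocorticoid-induced genes 2 were past 2-fold lower and 0 higher, with a median of -0.18. These were Klf9 (14.4 FPKM in Adv-IL-17B and 32.5 FPKM in Adv-EV) and Zbtb16 (2.37 FPKM in Adv-IL-17B and 11.3 FPKM in Adv-EV), and the most abundant, Tsc22d3, stood at 123 FPKM in Adv-IL-17B and 194 FPKM in Adv-EV.

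**Figure D5:**
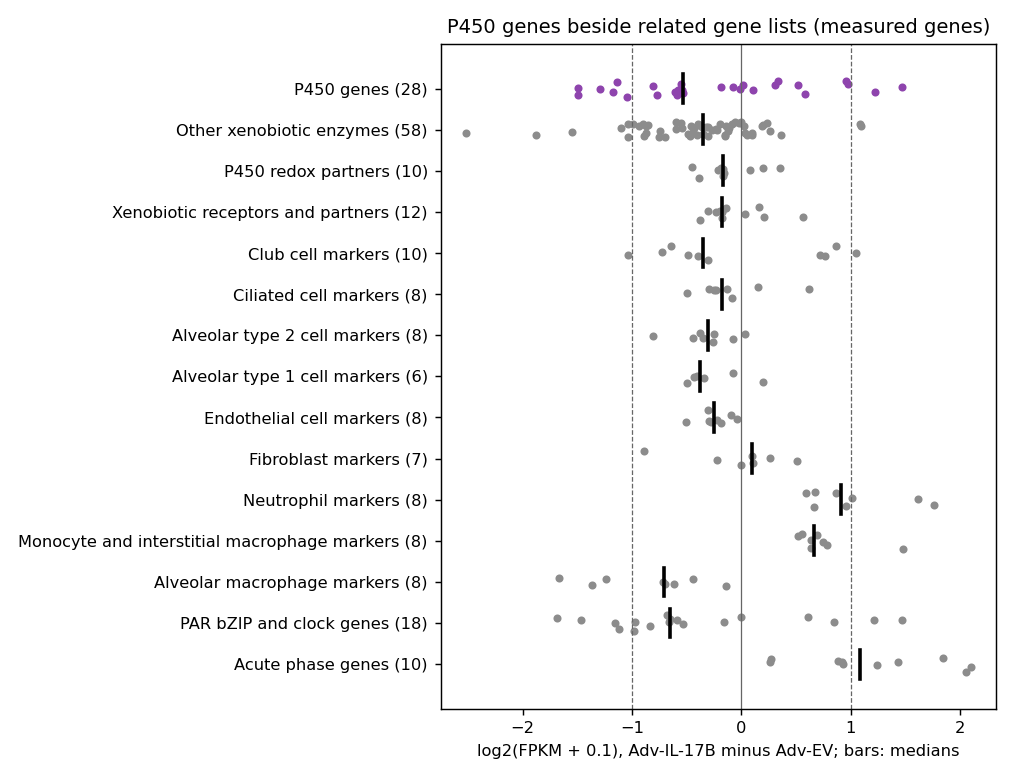
Log2 ratio of Adv-IL-17B to Adv-EV on FPKM + 0.1 for each measured gene (points) of the P450 genes (top row, purple) and of 14 other gene lists (grey), with the number of genes in brackets and the list's median as a black bar. The medians run from -0.71 (alveolar macrophage markers) to 1.09 (acute phase genes), with the P450 genes at -0.53.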

How the data were processed

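Whole-lung RNA of 1 library per group was analysed, and the libraries were grouped by their titles. The authors deposited FPKM values in 1 column per library, rounded to 2 decimals, per the file headers. Bowtie2 and HISAT, without versions, and the build mm10 are named in the submitters' processing notes; how FPKM was computed, with which annotation, and how strand and reads with several matches were treated is not given in the sources used. FPKM depends on the library total and on transcript length. With 1 library per group no test was run.

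Ratios were log2(FPKM + 0.1) in Adv-IL-17B minus Adv-EV for genes whose mean reached 0.5 FPKM, and a 2-fold size rule was used. Fold values are plain FPKM ratios, which can pass 2 in genes inside the size rule, such as Cyp2r1 at 2.24. Most values of low genes lie near whole multiples of a step: 1 fragment was worth 0.181 FPKM (Adv-IL-17B) and 0.182 FPKM (Adv-EV) for a transcript of 1 kb, with 80.6% and 80.7% of low values within 0.2 of a whole number. Lengths came from GENCODE M21, the longest where a gene had several. Estimated fragments summed over genes exceeded the estimated library total, so depth is rough. Steps from 0.1 to 0.4 were searched. Intervals are exact Clopper-Pearson (ratios) or Poisson (levels). The step search, the size rule and the intervals were tested on simulated data. Sequence sharing counted 50-base windows found in transcripts of other genes.

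Named genes were the 20 P450 genes with the highest mean, measured genes past 2-fold, and genes at 0 in 1 library with at least 0.5 FPKM in the other. Other members are named to account for each role. From the pathway lists, genes past 2-fold and the highest were to be named, and further genes were named after their values were seen. The members, gene lists and roles were chosen with earlier results of these data known. The planned protein comparison was not made. Alternatives were pseudocount, filter, scaling and size rule; limits on fragments and on shared sequence, and the motifs other than GCGTG, were added after seeing the data, and 1 further motif searched is not reported here. Python 3.11.15, NumPy 2.4.6, pandas 2.3.3, SciPy 1.17.1 and Matplotlib 3.10.9 were used.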

Additional observations from a re-analysis of the deposited data

How the results depend on the processing

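The P450 counts of 2 higher and 6 lower did not move under scaling to the same sum, to the same upper quartile or centring on the median of all measured genes. With a pseudocount of 1 there were 1 higher and 2 lower (2.33% and 1.17% of all genes), with no filter 9 and 10 of 50 (6.39% and 5.62%), at 1.5-fold 4 and 10 (9.42% and 8.2%), and at 3-fold 0 and 0. With a pseudocount of 0.01 there were 3 and 6 (4.16% and 3.03% of all genes), with a median of -0.54. With a mean of at least 2 FPKM there were 2 and 4 of 23 (2.66% and 1.31% of all genes). The median log2 ratio of P450 genes was -0.42 with a pseudocount of 1 and -0.09 with no filter, where 22 genes of few fragments enter, the family 4 median was 0.44 with no filter in place of 0.22, and the acute phase median was 0.89 with a pseudocount of 1. Restricted to genes of at least 20 fragments, 2 of 26 P450 genes were higher and 5 lower (2.79% and 1.54% of all genes), with a median of -0.53. Without the P450 genes sharing over 20% of their windows, 2 of 25 were higher and 4 lower (3.95% and 2.67% of all genes). Each named gene stayed within its counting interval under each alternative for which it has a value, and Cyp4f13, near 0, changed sign in 2. For the pseudogenes Cyp4b1-ps2 and Cyp4f41-ps that interval has no upper limit. Their log2 ratios ran from 0.96 to 6.58 and from 0.86 to 6.38. Genes named only to account for a role, such as Cyp2r1, had no such values. No paired analysis was possible because each group has 1 library. Differences between mice cannot be judged at any depth here.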
